A study of Drosophila melanogaster with 16 samples.

Results

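The larval serum protein genes are 6 listed genes of *Drosophila melanogaster*, namely *Lsp1alpha*, *Lsp1beta*, *Lsp1gamma*, *Lsp2*, *Fbp1* and *Fbp2*. They were listed by name and selected on earlier results of these data, chief among them the lower levels upon fasting. That difference is therefore given below as a description without a test. Of the 6 genes, 3 were analysed here out of 10459 genes in the expression table: *Lsp1alpha*, *Lsp1beta* and *Lsp1gamma*. *Lsp2*, *Fbp1* and *Fbp2* were not analysed here.

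RNA sequencing was performed on whole male larvae of the last larval instar that had not begun to wander, in 16 libraries of 4 groups with 4 libraries each. The groups were fasted *ERK7* mutant larvae, fasted control larvae, fed *ERK7* mutant larvae and fed control larvae. *ERK7* encodes an atypical mitogen-activated protein kinase. The mutants carried the *ERK7* 1 allele, a deletion with a frameshift made by CRISPR/Cas9 and kept as 1 line. Controls, labelled wild type, came from a line of the same CRISPR screen whose *ERK7* gene was intact, and both lines had been backcrossed into w1118 and kept as balanced stocks. Eggs were collected over 3 h, larvae were moved to standard food after 24 h, and 48 h later they were placed for 6 h either on agarose in phosphate-buffered saline (fasted, labelled starved) or on fresh food (fed). The written methods put that last transfer at a later age than the labels do, and which age applied was not settled here. The number of larvae behind a library was not stated for the sequencing in the sources used here, and nothing said whether the 4 libraries of a group came from separate cultures, so p-values measure the spread between these libraries only.

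Larval serum proteins are hexamerins, storage proteins of the haemocyanin superfamily that assemble as hexamers. The fat body makes them in large amounts in the last larval instar and secretes them into the haemolymph. Before metamorphosis the fat body takes them up again, and their amino acids serve for building the adult. LSP1 hexamers are put together from the alpha, beta and gamma subunits, LSP2 is a separate hexamerin, FBP1 is the receptor through which the fat body takes up larval serum proteins, and FBP2 is a fat body protein related to alcohol dehydrogenase. Since transcription of the *Lsp1* genes starts within the last instar, their transcripts are used as a sign of how far a larva has advanced in it.

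In the release 6 assembly the 3 genes lie apart. *Lsp1alpha* (FBgn0002562) is on the plus strand of chromosome X from 12490291 to 12492982, so that male larvae carry it on their only X chromosome. *Lsp1beta* (FBgn0002563) is on the plus strand of chromosome arm 2L from 898500 to 901316. *Lsp1gamma* (FBgn0002564) is on the plus strand of chromosome arm 3L from 66430 to 68995. Each gene has 1 intron, of 67 bases in *Lsp1alpha*, 68 bases in *Lsp1beta* and 65 bases in *Lsp1gamma*, and the exons of each sum to 2625, 2749 and 2501 bases in the same order. No annotated neighbour within 10000 bases shared an exon base with any of them.

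The libraries held between 16482553 and 20601418 reads on the genes of the table, and levels are given in RPM, that is read counts scaled to a common library size and by the library factor that the study applied. A single read was worth 0.0472 to 0.0642 RPM. *Erk7*, the mutated gene (FBgn0052703, chromosome X, 9261376 to 9267698), stood at 5.14 to 8.03 RPM in fasted mutants, 1.83 to 9.73 RPM in fasted controls, 5.58 to 10.2 RPM in fed mutants and 0.634 to 3.05 RPM in fed controls. On the log2(RPM + 1) scale its log2 fold change was 1.59 in fed mutants (SE 0.37, limma adjusted p = 0.00235). In fasted mutants it was 0.46 (SE 0.37, limma adjusted p = 0.334). A small deletion need not lower the transcript level, so the level of *Erk7* does not check the labels. Control fed replicate 4 stood apart, with 213 genes at 0 reads against 29 to 70 in the other control fed libraries, and control fasted replicate 1 stood apart in the *Lsp1* values below, so the main comparisons of the *Lsp1* genes are also given without both.

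*Lsp1gamma* was the most abundant of the 3 transcripts in each of the 16 libraries. It had 12890, 12845, 8842 and 12961 RPM in replicates 1 to 4 of fasted mutants, against 1236, 361, 557 and 356 RPM in fasted controls. In fed mutants it had 55619, 47799, 46470 and 55317 RPM, against 17884, 14638, 19227 and 7932 RPM in fed controls. Fed mutants were thus above fed controls in every library, and fasted mutants above fasted controls. The range of fasted mutants lay within that of fed controls, so these groups were next to each other in the order and overlapped.

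*Lsp1beta* ran through the same order over a wider range. Fasted mutants had 4482, 3893, 1669 and 3475 RPM in replicates 1 to 4, against 139, 3.43, 6.62 and 1.99 RPM in fasted controls. Fed mutants had 37104, 31661, 28998 and 34594 RPM, against 7684, 6230, 11684 and 2290 RPM in fed controls. Again fed mutants were highest and fasted controls lowest without overlap, and the ranges of fasted mutants and fed controls overlapped. Control fasted replicate 1 was far above the other 3 libraries of its group.

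*Lsp1alpha*, the X-linked gene, was the lowest of the 3 in every library. It had 187, 290, 58.9 and 152 RPM in replicates 1 to 4 of fasted mutants, against 1.64, 0.580, 0.650 and 0.662 RPM in fasted controls. Fed mutants had 12125, 10837, 10723 and 15298 RPM, against 540, 67.6, 312 and 6.81 RPM in fed controls. Here too the mutants lay above the controls within each diet without overlap, and fed controls and fasted mutants overlapped. In fasted controls *Lsp1alpha* rested on 31, 11, 11 and 13 reads, and the exact (Clopper-Pearson) 95% interval of the 0.580 RPM of replicate 2 ran from 0.289 to 1.04 RPM, a range that covers counting error only.

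**Figure D1:**
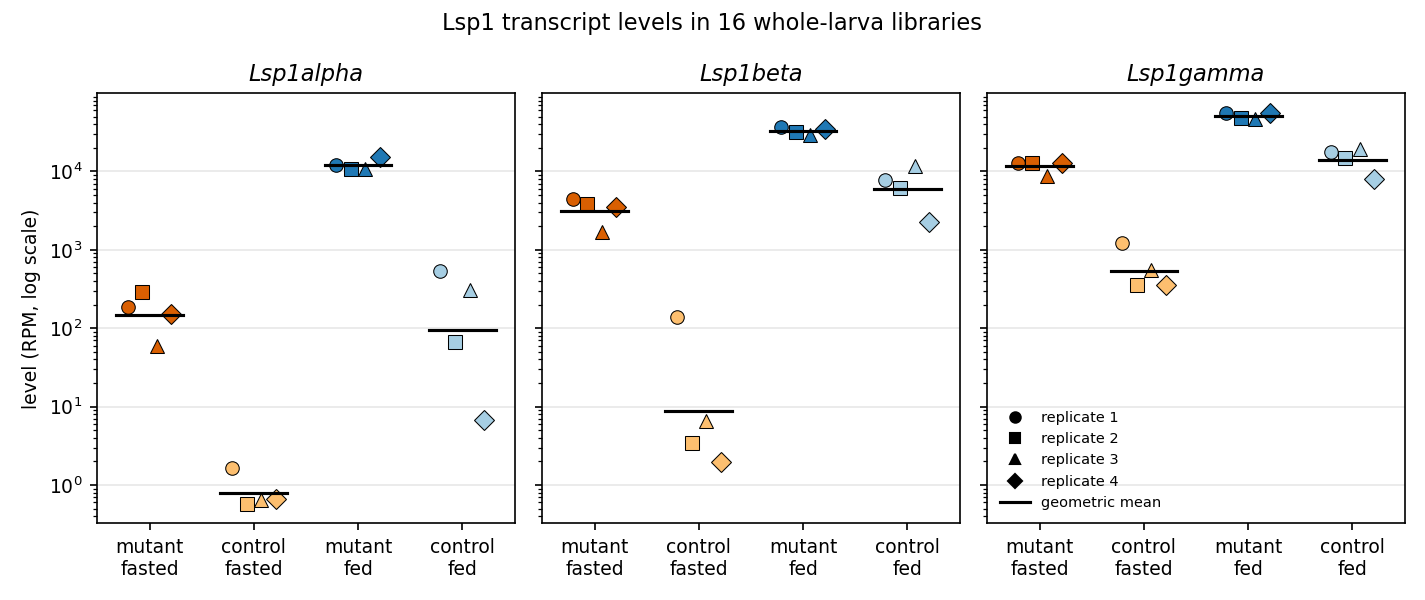
Level of each *Lsp1* gene in RPM on a log axis, by group, with 1 point per library and a bar at the geometric mean of the 4 libraries; the marker shape is the replicate. Fed mutants sit highest and fasted controls lowest for each gene, and the 4 fed controls spread from 6.81 to 540 RPM for *Lsp1alpha*.

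Levels were compared between genes per kilobase of exon. In fed mutants *Lsp1gamma* had 18581 to 22239 RPM per kb, *Lsp1beta* 10549 to 13497 and *Lsp1alpha* 4085 to 5828. In fasted controls the same genes had 142 to 494, 0.723 to 50.7 and 0.221 to 0.624 RPM per kb. Gamma stood above beta, and beta above alpha, in each of the 16 libraries on this scale as well. Among the 10459 genes of the table, ranked by RPM, *Lsp1gamma* held place 2 and *Lsp1beta* place 3 in all 4 fed mutant libraries, and *Lsp1alpha* place 8 or 9. In fed controls *Lsp1alpha* ranged from place 270 to place 6951, while *Lsp1gamma* kept to places 4 to 9.

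The 3 genes took up a sizeable share of some libraries. They held 1.94%, 1.76%, 1.11% and 1.75% of the reads on measured genes in fasted mutants, against 0.142%, 0.0380%, 0.0557% and 0.0386% in fasted controls. In fed mutants they held 9.38%, 8.68%, 8.61% and 9.96%, against 2.51%, 2.02%, 2.95% and 0.993% in fed controls. *Lsp1alpha* alone accounted for 1.04% to 1.45% of the reads in fed mutants and for at most 0.0519% in fed controls. As the libraries are from whole larvae, fewer fat body cells and less RNA per fat body cell cannot be told apart.

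**Figure D2:**
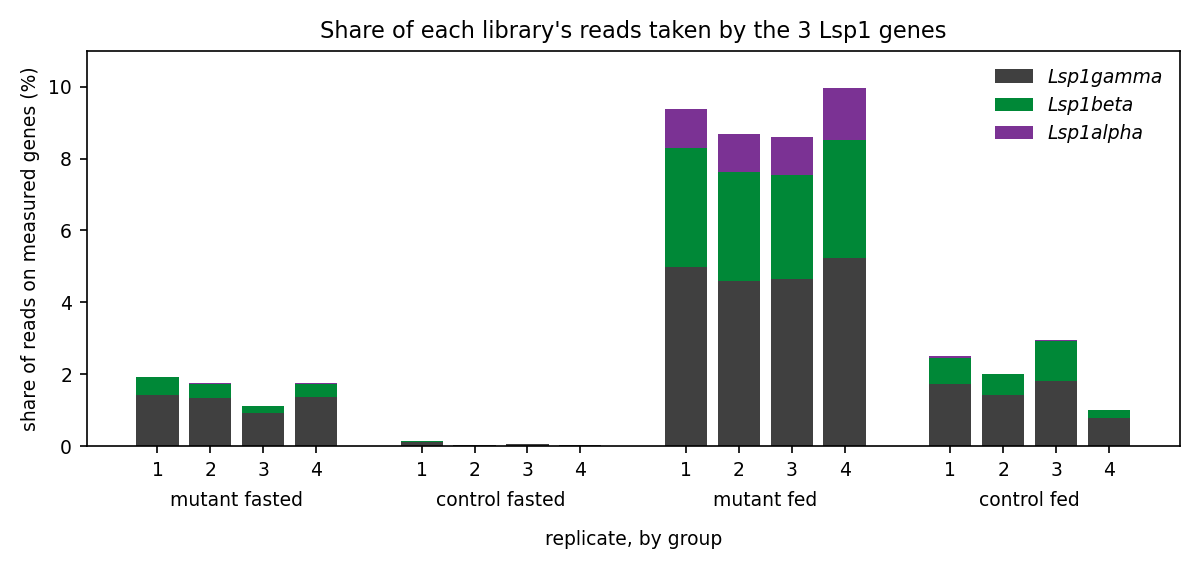
Share of reads on measured genes (%) that fell on *Lsp1gamma*, *Lsp1beta* and *Lsp1alpha*, stacked for each of the 16 libraries. The stacks reach 8.61% to 9.96% in fed mutants, and *Lsp1alpha* makes a visible layer in that group only, at 1.04% to 1.45% of reads.

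Replicate libraries differed from each other by an amount that depended on the group and the gene. In fed mutants the highest library exceeded the lowest by 1.43-fold for *Lsp1alpha*, 1.28-fold for *Lsp1beta* and 1.20-fold for *Lsp1gamma*. In fed controls the same ratios were 79.3, 5.10 and 2.42. In fasted mutants they were 4.92, 2.69 and 1.47, and in fasted controls 2.83, 70.2 and 3.47. *Lsp1gamma* therefore varied least within 3 of the groups, the exception being fasted controls, where the few reads of *Lsp1alpha* varied less. A library low for one gene tended to be low for the others: control fed replicate 4, mutant fed replicate 3 and mutant fasted replicate 3 were each the lowest of their group for all 3 genes, and control fasted replicate 1 was the highest of its group for all 3.

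Did the *Lsp1* transcripts differ between the genotypes in feeding larvae? All 3 genes were higher in fed mutants than in fed controls by limma, where 25.6% of the 10459 genes tested were called higher and 26.0% lower. *Lsp1alpha* averaged 12246 ± 2132 RPM in fed mutants and 232 ± 244 RPM in fed controls (SD, n = 4 each), with a log2 fold change on the log2(RPM + 1) scale of 6.96 ± 0.94 (SE) and an adjusted p = 2.98e-05 by limma. *Lsp1gamma* averaged 51301 ± 4843 RPM and 14921 ± 5041 RPM in the same groups, with a log2 fold change of 1.85 ± 0.35 (SE) and an adjusted p = 4e-04 by limma. *Lsp1beta* averaged 33089 ± 3519 RPM and 6972 ± 3881 RPM, with a log2 fold change of 2.46 ± 0.90 (SE) and an adjusted p = 0.0324 by limma. As ratios of geometric means, the 3 genes were 129-fold, 5.51-fold and 3.62-fold higher in the order alpha, beta, gamma. Because the genes were listed with earlier results in view, these p-values are no independent support. The paper reports that the mutants grew faster and formed pupae earlier than controls. With 1 line per genotype and the same labelled collection times, loss of *ERK7*, line and larval stage cannot be told apart. By size of the log2 fold change, *Lsp1alpha* held place 1 among the 10459 genes, *Lsp1beta* place 77 and *Lsp1gamma* place 285, counted from the most strongly higher gene.

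The main fit pools the spread of all 4 groups. For *Lsp1beta* the SD of log2(RPM + 1) was 2.52 in fasted controls, 0.15 in fed mutants and 1.00 in fed controls. With only the 8 fed libraries fitted, its log2 fold change of 2.46 had an SE of 0.42 (limma adjusted p = 0.00103). In the main fit of 16 libraries the call for *Lsp1beta* in fed larvae was near the threshold. It was lost under quantile normalization (log2 fold change 1.99, adjusted p = 0.0777), in edgeR (adjusted p = 0.0586), and on leaving out any of mutant fed replicates 1 to 4 or control fed replicates 2 and 4, where the adjusted p was between 0.0527 and 0.0990, although the 4 mutant libraries all exceeded the 4 control libraries. The log2 fold change of *Lsp1alpha* was 5.74 without control fed replicate 4, 7.78 without control fed replicate 1 and 5.72 in edgeR, and under quantile normalization that of *Lsp1gamma* was 0.99, all still called. Without control fed replicate 4 and control fasted replicate 1 together, all 3 genes were called, with log2 fold changes of 5.74, 2.00 and 1.58 for alpha, beta and gamma.

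In fasted larvae the genotypes stood further apart in *Lsp1beta* and *Lsp1gamma* than in fed larvae, which is given here as a description. All 3 genes were called higher in fasted mutants than in fasted controls, where 23.8% of the 10459 genes were called higher and 20.9% lower. *Lsp1beta* averaged 3380 ± 1213 RPM in fasted mutants and 37.8 ± 67.7 RPM in fasted controls (SD, n = 4 each), with a log2 fold change of 8.18 ± 0.90 (SE) and an adjusted p = 2.3e-05 by limma. *Lsp1alpha* averaged 172 ± 95.5 RPM and 0.883 ± 0.505 RPM, with a log2 fold change of 6.35 ± 0.94 (SE) and an adjusted p = 0.000214 by limma. *Lsp1gamma* averaged 11884 ± 2029 RPM and 627 ± 416 RPM, with a log2 fold change of 4.42 ± 0.35 (SE) and an adjusted p = 3.17e-06 by limma. The ratios of geometric means were 186-fold, 356-fold and 21.5-fold in the order alpha, beta, gamma. By size of the log2 fold change, *Lsp1beta* held place 1 of the 10459 genes here, *Lsp1alpha* place 2 and *Lsp1gamma* place 4. The log2 fold change of *Lsp1beta* was 9.41 without control fasted replicate 1, 7.56 without control fasted replicate 4 and 6.48 in edgeR, and that of *Lsp1alpha* was 7.36 with a pseudocount of 0.1 and 7.59 in edgeR. Without control fed replicate 4 and control fasted replicate 1 together, the log2 fold changes were 6.52, 9.41 and 4.82 for alpha, beta and gamma, all still called. The genes were selected on levels that include these fasted libraries, so the p-values are no independent support here either.

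Fasting went with lower levels of all 3 genes in both genotypes, and the groups did not overlap. These differences were among the values that chose the genes and carry no test. How many of the 10459 genes likewise had groups without overlap was not counted, here or for the genotypes above. Upon fasting, limma called 3922 genes higher and 3370 lower in controls, and 2477 higher and 2616 lower in mutants. In mutants the log2 fold change of fasted over fed larvae was -6.34 for *Lsp1alpha* (SE 0.94), -3.38 for *Lsp1beta* (SE 0.90) and -2.12 for *Lsp1gamma* (SE 0.35). In controls it was -5.73, -9.10 and -4.69 for the same genes with the same SEs. As ratios of geometric means, *Lsp1alpha* was 81.5-fold lower in fasted than in fed mutants and 117-fold lower in fasted than in fed controls. *Lsp1beta* was 10.4-fold lower in mutants and 672-fold lower in controls, and *Lsp1gamma* was 4.36-fold lower in mutants and 25.9-fold lower in controls. The control values moved with the libraries and the tool. For *Lsp1alpha* the control value was -4.91 without control fed replicate 1, -6.94 without control fed replicate 4 and -8.02 in edgeR. For *Lsp1beta* it was -10.33 without control fasted replicate 1, -8.48 without control fasted replicate 4 and -7.52 in edgeR, and quantile normalization gave -1.09 for *Lsp1gamma* in mutants. Without control fed replicate 4 and control fasted replicate 1 together, the control values were -7.12, -10.79 and -5.36 for alpha, beta and gamma. The median over all genes was 0.00 in mutants and 0.10 in controls on the log2 scale.

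The fasting difference was smaller in mutants than in controls for *Lsp1beta* and *Lsp1gamma*, and for *Lsp1alpha* the estimates of the 2 genotypes lay within 1 SE of each other. This comparison too carries no test. The fasting log2 fold change of mutants minus that of controls was 5.72 for *Lsp1beta* (SE 1.27) and 2.57 for *Lsp1gamma* (SE 0.49). For *Lsp1alpha* it was -0.61 with an SE of 1.33. With a pseudocount of 0.1 the value for *Lsp1alpha* was 0.35, in edgeR 1.87, in DESeq2 1.91, and without the 2 control libraries named above 0.78, and it ran from -1.43 without control fed replicate 1 to 0.61 without control fed replicate 4, so its sign was not settled. For *Lsp1beta* it was 4.23 in edgeR and 7.41 without those 2 libraries, and for *Lsp1gamma* 3.59 under quantile normalization and 3.24 without the 2 libraries.

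**Figure D3:**
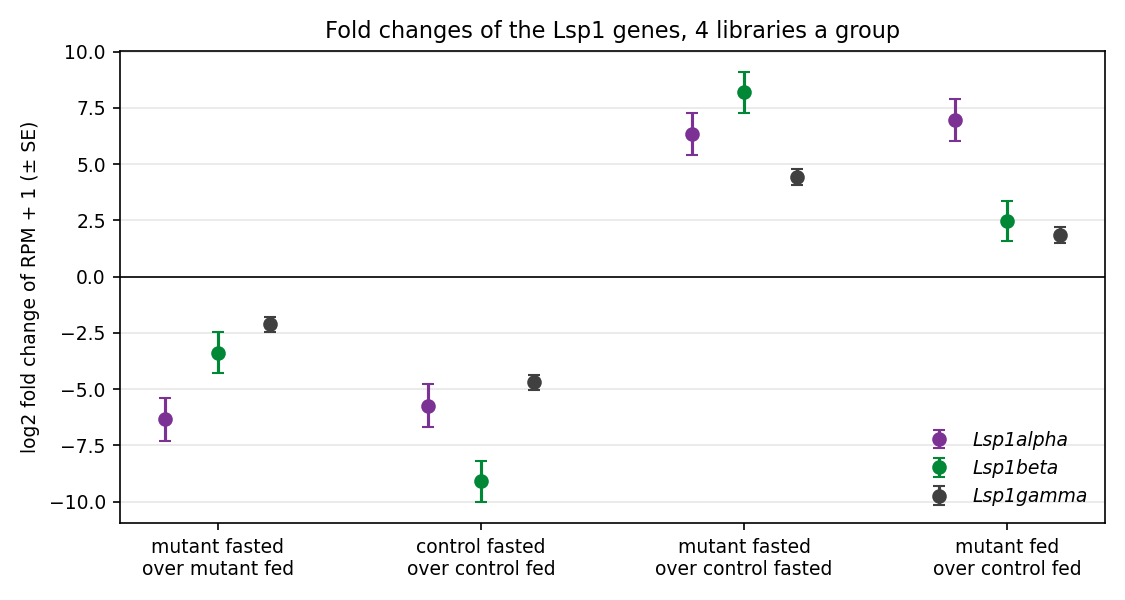
Log2 fold change of RPM + 1 with limma's SE for *Lsp1alpha*, *Lsp1beta* and *Lsp1gamma* in 4 comparisons of groups of 4 libraries. *Lsp1beta* shows the most negative value in controls upon fasting (-9.10) but not in mutants (-3.38), and *Lsp1alpha* the highest value between fed genotypes (6.96).

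The ratio of 2 genes within a library does not depend on how that library was scaled, apart from the pseudocount of 1 used in the tests. *Lsp1beta* as a percentage of *Lsp1gamma* was 34.8%, 30.3%, 18.9% and 26.8% in replicates 1 to 4 of fasted mutants, against 11.3%, 0.948%, 1.19% and 0.558% in fasted controls. It was 66.7%, 66.2%, 62.4% and 62.5% in fed mutants, against 43.0%, 42.6%, 60.8% and 28.9% in fed controls. The beta to gamma ratio was thus higher in mutants in both diets, and it was nearly the same in all 4 fed mutant libraries. On the log2 scale it was higher by 0.61 in fed mutants than in fed controls, and by 3.76 in fasted mutants than in fasted controls. Each difference had p = 0.0286 in a two-sided exact permutation test of 4 against 4 libraries, the smallest value this test can give, and an adjusted p = 0.0343 over the 6 ratio tests. Ratios among the 3 genes were named for study with earlier results in view, so these p-values too are no independent support. Without control fed replicate 4 and control fasted replicate 1 together, the log2 differences were 0.42 in fed and 4.60 in fasted larvae, at an exact permutation p = 0.0571, the smallest that 4 against 3 libraries allow.

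*Lsp1alpha* as a percentage of *Lsp1gamma* was 1.45%, 2.26%, 0.666% and 1.18% in fasted mutants, against 0.133%, 0.160%, 0.117% and 0.186% in fasted controls. In fed mutants it was 21.8%, 22.7%, 23.1% and 27.7%, against 3.02%, 0.462%, 1.62% and 0.0859% in fed controls. Among the 16 libraries, alpha thus came closest to gamma in the 4 of fed mutants. The log2 ratio of alpha to gamma was higher by 5.10 in fed mutants than in fed controls and by 1.92 in fasted mutants than in fasted controls, each with an exact permutation p = 0.0286 and an adjusted p = 0.0343. The fasted value depended on the pseudocount, being 2.93 with a pseudocount of 0.1 and 3.11 with none. As a percentage of *Lsp1beta*, *Lsp1alpha* was 32.7% to 44.2% in fed mutants and 0.297% to 7.03% in fed controls, a log2 difference of 4.49 with the same p-values. In fasted larvae the alpha to beta ratio was 3.53% to 7.45% in mutants and 1.18% to 33.3% in controls, a log2 difference of -1.84 that did not pass (exact permutation p = 0.143, adjusted p = 0.143). Without the same 2 control libraries, the differences were 4.16 in fed and 1.70 in fasted larvae for alpha to gamma, and 3.74 and -2.89 for alpha to beta, again at the smallest p that can be reached.

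The 3 genes are paralogs, and a read that matches more than 1 of them cannot be assigned with certainty. Per the methods, reads of low quality score were discarded at counting, and the aligner gives low mapping scores to reads with several matches. In control fed replicate 4 *Lsp1alpha* stood at 0.0859% of *Lsp1gamma*, the lowest ratio of the 16 libraries. In fasted controls, where *Lsp1alpha* had 11 to 31 reads beside 6854 to 23384 reads of *Lsp1gamma*, the ratio kept between 0.117% and 0.186%. Whether those few reads came from *Lsp1alpha* was not tested.

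**Figure D4:**
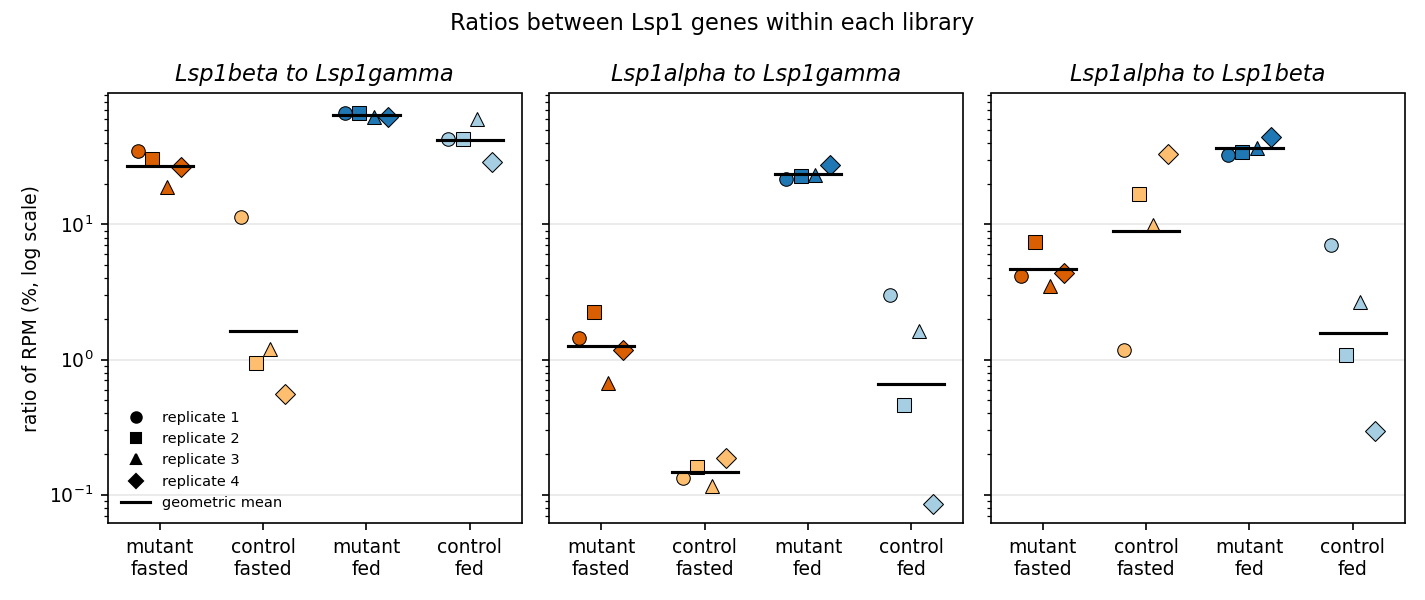
Ratios of RPM between the *Lsp1* genes within each library (%, log axis), by group, with 1 point per library and a bar at the geometric mean; the marker shape is the replicate. Fed mutants lie close together at 62.4% to 66.7% for beta to gamma and 21.8% to 27.7% for alpha to gamma, and control fasted replicate 1 stands at 11.3% for beta to gamma, above the other 3 of its group.

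As a clock of the last instar the 3 genes covered different spans. Over the 16 libraries the highest level exceeded the lowest by 156-fold for *Lsp1gamma*, 18681-fold for *Lsp1beta* and 26384-fold for *Lsp1alpha*. Across the fed genotypes the log2 difference of *Lsp1alpha* was 3.78 times that of *Lsp1gamma*, whereas for *Lsp1beta* it was 1.33 times. Across the fasted genotypes the same multiples were 1.70 for *Lsp1alpha* and 1.91 for *Lsp1beta*. These multiples compare log2 ratios of geometric means of RPM, with no pseudocount. Those that involve fasted controls rest for *Lsp1alpha* on the few reads behind 0.580 to 1.64 RPM. The multiples for fasting were 2.99 and 1.59 in mutants, and 1.46 and 2.00 in controls, for alpha and beta.

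The libraries fell into nearly the same order by each gene. Of the 120 pairs of libraries, 109 were ordered alike by all 3 genes. Of the 11 others, 7 were pairs within a group, and the remaining 4 set a fasted mutant library against a fed control library. *Lsp1alpha* was the gene that disagreed in 8 of the 11 pairs. Over the 16 libraries Pearson's r between log2(RPM + 1) values was 0.99 for beta and gamma, 0.93 for alpha and gamma and 0.89 for alpha and beta, which describes mainly the 4 groups, since the libraries share group and scaling.

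Fasted mutants and fed controls overlapped for each of the 3 genes, so that no gene separated these groups. The 4 fasted mutant libraries, at 8842 to 12961 RPM of *Lsp1gamma*, lay between control fed replicate 4 at 7932 RPM and the other fed controls at 14638 to 19227 RPM. *Lsp1alpha* was at 58.9 to 290 RPM in these fasted mutants, against 6.81 RPM in control fed replicate 4, 67.6 RPM in replicate 2, 312 RPM in replicate 3 and 540 RPM in replicate 1. Which group was higher in *Lsp1alpha* thus depended on the summary, with geometric means of 149 RPM in fasted mutants and 93.8 RPM in fed controls, but means of 172 and 232 RPM. The beta to gamma ratio was 18.9% to 34.8% in fasted mutants and 28.9% to 60.8% in fed controls, and it overlapped only through control fed replicate 4, the other 3 being at 42.6% to 60.8%. No test was made of this, and as the labels give the same collection times for all libraries, the levels could not be set against age.

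**Figure D5:**
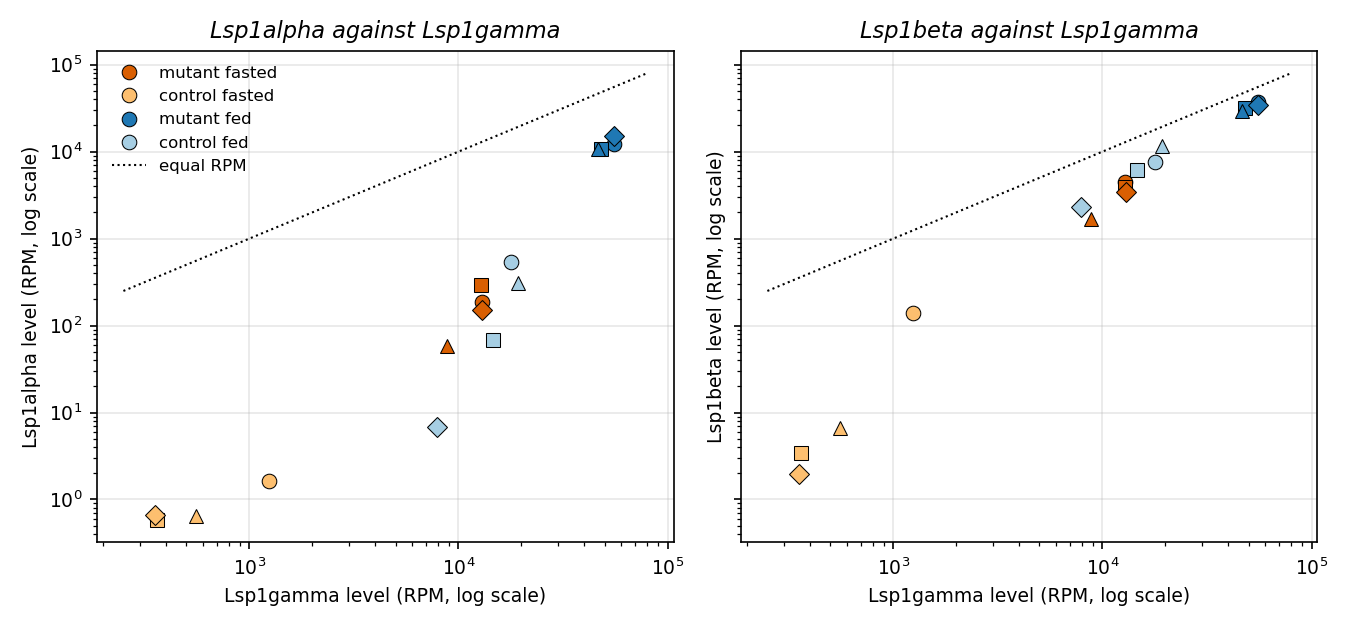
*Lsp1alpha* and *Lsp1beta* against *Lsp1gamma* (RPM, log axes), with 1 point per library; colours are the groups, marker shapes the replicates as in the plot of levels, and the dotted line marks equal RPM. The fasted mutants, at 8842 to 12961 RPM of *Lsp1gamma*, lie between control fed replicate 4 and the other 3 fed controls, and both groups overlap in *Lsp1alpha* and *Lsp1beta*.

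Markers of the fat body, the tissue that makes these proteins, ordered the groups otherwise than the *Lsp1* genes did. All 12 measured markers of 13 listed had reads in every library. Their summed level was 7027 to 8238 RPM in fed mutants and 12352 to 12672 RPM in fed controls. Between the fed genotypes it was thus lower where *Lsp1* was higher. The collagen IV genes *Cg25C* and *vkg* made up much of this gap. Their means were 1550 and 1085 RPM in fed mutants, against 3783 and 2649 RPM in fed controls. In control fed replicate 4, the lowest fed control for each *Lsp1* gene, the sum was 12610 RPM. In fasted larvae the sums overlapped, at 8038 to 9867 RPM in mutants and 8247 to 9130 RPM in controls. In fed mutants 2 of the 12 were called higher and 5 lower than in fed controls, with a median log2 fold change of -0.22 against -0.02 over all genes, and in fasted mutants 5 were higher and 2 lower. Over all genes tested the shares were 25.6% higher and 26.0% lower in fed mutants, and 23.8% higher and 20.9% lower in fasted mutants, the background for the counts of the lists that follow as well.

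Among single fat body markers, the collagen IV genes *vkg* and *Cg25C* were lower in fed mutants, each with a log2 fold change of -1.29 (SE 0.08 and 0.09, limma adjusted p = 4.19e-08 and 9.95e-08). *vkg* had 1012 to 1194 RPM in fed mutants and 2636 to 2673 RPM in fed controls. *Tsf1*, which encodes the secreted iron carrier transferrin, was higher, with 415 to 861 RPM in fed mutants and 175 to 233 RPM in fed controls (log2 fold change 1.30, SE 0.28, limma adjusted p = 0.0014). Genes for secreted products of the fat body were thus called in both directions.

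Testis markers moved with the genotype. Of the 31 listed, 25 were measured, and 23 were called higher and 0 lower in fed mutants, with a median log2 fold change of 1.95. At an unadjusted p under 0.05 the count lower was also 0, as in edgeR, while DESeq2 called 1 lower. In fasted mutants 20 were called higher and 1 lower, with a median of 1.00. Their summed level was 284 to 430 RPM in fasted mutants, 95.1 to 278 RPM in fasted controls, 310 to 482 RPM in fed mutants and 61.9 to 118 RPM in fed controls. Of the 25, 5 were at 0 reads in at least 1 fed control library, and each had reads in all libraries of the other groups. Control fed replicate 4, lowest for *Lsp1*, also had the lowest testis sum of its group at 61.9 RPM, and control fasted replicate 1, highest for *Lsp1*, had the highest of its group at 278 RPM. Mutant fasted replicate 3, the lowest of its group for all 3 *Lsp1* genes, had the lowest testis sum of its group at 284 RPM. In fed mutants the order ran otherwise, since replicate 3, the lowest of its group for all 3 *Lsp1* genes, had the highest testis sum at 482 RPM. Control fasted replicate 4, lowest of its group for *Lsp1beta* and *Lsp1gamma*, had a testis sum of 260 RPM, above replicates 2 and 3 at 128 and 95.1 RPM. *betaTub85D*, the tubulin of the male germline, averaged 45.9 ± 11.3 RPM in fed mutants and 4.49 ± 2.70 RPM in fed controls (SD, n = 4 each; log2 fold change 3.26, SE 0.46, limma adjusted p = 3.93e-05). *S-Lap1* and *S-Lap4*, which encode sperm leucylaminopeptidases, had log2 fold changes of 3.32 and 3.15. The part of testis size in the *Lsp1* difference was not tested.

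Response genes of the steroid hormone ecdysone, which times the larval stages, were followed beside the *Lsp1* genes. In fed mutants 4 of the 12 measured of 16 listed were called higher and 0 lower (also 0 lower at an unadjusted p under 0.05 and in edgeR and DESeq2), and in fasted mutants 2 were higher and 5 lower. These counts, of 12 genes, stand beside 25.6% of all genes called higher in fed mutants and 20.9% called lower in fasted mutants. *br*, a transcription factor gene switched on by ecdysone in the last instar, had 104 to 188 RPM in fed mutants and 50.7 to 68.9 RPM in fed controls (log2 fold change 1.27, SE 0.14, limma adjusted p = 4.37e-06). *Eip74EF*, another ecdysone-induced transcription factor gene, had 2.95 to 4.63 RPM in fasted mutants, against 5.13, 20.0, 29.5 and 19.0 RPM in replicates 1 to 4 of fasted controls (log2 fold change -1.82, SE 0.35, limma adjusted p = 0.0013). In fed larvae it was called higher, with 3.05 to 5.06 RPM in mutants and 1.48 to 2.38 RPM in controls (log2 fold change 0.87, SE 0.35, limma adjusted p = 0.0486). Control fasted replicate 1, which had the most *Lsp1* of its group, thus had the least *Eip74EF*. *EcR*, the ecdysone receptor gene, was higher in fed mutants by 0.55 on the log2 scale (SE 0.15, limma adjusted p = 0.00628) and in fasted mutants its log2 fold change was -0.17 (adjusted p = 0.373).

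Other gene groups of the late larva were counted in the same way. Of 3 measured late last instar and prepupal genes of 17 listed, 2 were called higher in fed mutants: *ImpE1*, an ecdysone-inducible gene of imaginal discs, by 1.19 on the log2 scale (5.58 to 7.92 RPM in fed mutants, 1.53 to 3.35 RPM in fed controls) and *ImpE3* by 0.72. In fasted mutants 1 of the 3 was higher and 1 lower. Of 11 measured larval cuticle genes of 12 listed, 4 were called higher and 5 lower in fed mutants, and the counts were the same in fasted mutants, where over all genes 23.8% were called higher and 20.9% lower. *Lcp2* was higher in fed mutants with 98.3 to 175 RPM against 10.1 to 23.8 RPM in fed controls (log2 fold change 3.07, SE 0.26, limma adjusted p = 3.78e-07). For *Lcp65Af* and *Lcp65Ag2*, both called lower, the log2 fold changes were -2.93 and -2.56. Of 11 listed salivary glue genes, 4 new-glue genes were measured, of which 0 were called in fed mutants by limma in either direction (likewise 0 at an unadjusted p under 0.05 and in edgeR and DESeq2, but 1 higher without the 2 control libraries), and 2 were called lower in fasted mutants.

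The closest relatives of the hexamerins on the lists are prophenoloxidases, the copper enzymes that blood cells use for melanization. *PPO1* and *PPO2* were the 2 measured genes of a list of 5. *PPO1* had 195 to 231 RPM in fasted mutants against 101 to 143 RPM in fasted controls, and 272 to 385 RPM in fed mutants against 120 to 134 RPM in fed controls. Its log2 fold change was 1.31 between fed genotypes (SE 0.11, limma adjusted p = 5.06e-07) and 0.83 between fasted genotypes (SE 0.11, limma adjusted p = 0.000115). *PPO2* was higher by 1.05 in fed and by 0.64 in fasted mutants. Upon fasting in controls the log2 fold changes were -0.07 for *PPO1* and 0.06 for *PPO2*. In mutants they were -0.55 (SE 0.11) and -0.35 (SE 0.10).

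Measured neighbours within 10000 bases were *Cpr11A*, *Mks1* and *CG2556* beside *Lsp1alpha*, and the noncoding RNA gene *CR44510*, which starts 143 bases downstream of *Lsp1gamma* on the same strand. *CR44510* was higher in fed mutants by 0.54 on the log2(RPM + 1) scale (SE 0.08, limma adjusted p = 0.000101), with 1.40 to 2.07 RPM in fed mutants and 0.835 to 1.06 RPM in fed controls. Its log2 fold change was 0.12 in fasted mutants (adjusted p = 0.244), where it had 0 to 0.199 RPM, against 0 in 3 of the fasted controls and 0.106 RPM in replicate 1. Upon fasting its log2 fold change was -1.33 in mutants and -0.91 in controls, given as a description. *Mks1* was higher by 0.50 in fed mutants (SE 0.15, limma adjusted p = 0.0115), with 0.440 to 1.09 RPM against 0.0528 to 0.362 RPM in fed controls, and by 0.61 in fasted mutants (SE 0.15, limma adjusted p = 0.00566). At such low levels the pseudocount of 1 compresses these fold changes. *Cpr11A*, a cuticle protein gene, was not called in either diet (adjusted p = 0.383 and 0.897). *CG2556* was called lower in fasted mutants, with 203 to 220 RPM against 228 to 255 RPM in fasted controls (log2 fold change -0.19, limma adjusted p = 0.0205), and in fed larvae its log2 fold change was 0.04 (adjusted p = 0.603).

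Outside the family, the genes whose pattern was most like the mean log2(RPM + 1) of the 3 *Lsp1* genes were sought among the 5226 genes above the median mean level. Over the 16 libraries Pearson's r was 0.97 for *CG43164*, 0.96 for *Syp*, which encodes an RNA-binding protein, and 0.96 for *GstD4*, *AOX2* and *CG13827*. *GstD4* encodes a glutathione S-transferase and *AOX2* an aldehyde oxidase. Each was chosen for this likeness, so the values are a description. *CG43164* had 61.1 to 76.8 RPM in fasted mutants, 22.4 to 35.3 RPM in fasted controls, 107 to 129 RPM in fed mutants and 55.5 to 66.6 RPM in fed controls. *Syp* had 225 to 269, 100 to 158, 441 to 512 and 255 to 281 RPM in the same groups. All 5 genes were on average highest in fed mutants and lowest in fasted controls, but they did not place the groups between alike. The mean of *CG43164* was higher in fasted mutants than in fed controls, at 67.2 and 59.6 RPM, whereas *Lsp1gamma* ran the other way. *GstD4* had 22.1 to 28.9 RPM in fasted mutants and 36.4 to 50.9 RPM in fed controls, and *AOX2* 38.4 to 44.4 and 55.5 to 70.1 RPM, without the overlap of the *Lsp1* genes. Their ranges were narrower than those of the *Lsp1* genes, the largest fasting log2 fold change in controls among them being -2.83 for *GstD4*.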

How the data were processed

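Poly(A) RNA of 16 whole-larva samples was sequenced. Per the methods and the submitters' processing notes, the authors trimmed reads with Trimmomatic, aligned them with TopHat2 2.1.0, counted them per gene by strand with HTSeq 2.7.6, removed low genes and ran limma. The deposited values are a signal per gene and library, read counts scaled to a common library size (here RPM) times a library factor. From these values 100% gave whole reads (tolerance 1e-06). Columns of the authors' own comparisons (fold changes, p-values) were not used.

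Here log2(RPM + 1) of 10459 genes was fitted with limma 3.58.1 on 4 group means (R 4.3.3), with Benjamini-Hochberg adjustment over all genes and calls at adjusted p under 0.05. The fit was tried on simulated counts with the same dispersion for every gene and group. How it behaves at the unequal spreads of the *Lsp1* genes was not tested. edgeR 4.0.16 on recovered reads called 2670 genes higher and 2741 lower in fed mutants, and 2156 and 2149 in fasted mutants. DESeq2 1.42.0, other scalings, a pseudocount of 0.1 and leaving out each library were tried too. Ratios were tested on log2 of (RPM + 1) by exact permutation.

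The members and lists were chosen with earlier results of these data known. Besides the members and *Erk7*, up to 3 called genes of each list with the largest fed genotype difference, and the 5 genes most correlated with *Lsp1*, were named, and the neighbours were added by position after the values were seen. Positions are from an Ensembl annotation of the release 6 assembly.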

Additional observations from a re-analysis of the deposited data

Results flagged for a closer look

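Within a group of 4 libraries, the highest or lowest library was set apart when its gap to the nearest other library as a share of the group's range, exceeded Dixon's 95% critical value. Of 28 groups of values tested, 5 were set apart. The groups share the same genes and libraries, so the rate of about 1 in 20 for separate, normally spread values does not apply. Control fasted replicate 1 accounted for 4 of them. Its 1.64 RPM of *Lsp1alpha* lay above the other 3 libraries by a gap of 0.922 of the range. For *Lsp1beta*, at 139 RPM against 1.99 to 6.62 RPM, the gap was 0.966. For the beta to gamma ratio, at 11.3% against 0.558% to 1.19%, it was 0.941. For the share of reads on the 3 genes, at 0.142% against 0.0380% to 0.0557%, it was 0.830. The fifth was mutant fasted replicate 3, whose 8842 RPM of *Lsp1gamma* lay below 12845 to 12961 RPM in the other fasted mutants with a gap of 0.972.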

How the results depend on the processing

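The 3 calls in fasted larvae held in all 26 alternatives, and in fed larvae 2 or 3 genes were called, *Lsp1beta* being the one lost. Leaving out each library in turn gave 2 to 3 called genes in fed larvae and 3 each time in fasted larvae. Fasting log2 fold changes kept their sign throughout. Quantile normalization sets values by rank within a library. It moved the fasting log2 fold changes of mutants to -2.62 for *Lsp1beta* and -1.09 for *Lsp1gamma*, and the cause was not tested. By RPM *Lsp1beta* held place 3 in fed mutants and places 15 to 52 in fasted mutants. *Lsp1gamma* held place 2 in fed mutants and places 5 to 8 in fasted mutants. Without any 1 library of a diet, no ratio test of 3 against 4 libraries can go below an exact permutation p = 0.0571, and the calls were lost by construction. The log2 differences then ran from 0.42 to 0.78 for beta to gamma, 4.16 to 5.81 for alpha to gamma and 3.74 to 5.20 for alpha to beta in fed larvae, and from 3.34 to 4.60 for beta to gamma and 1.65 to 2.23 for alpha to gamma in fasted larvae. The same limit holds without control fed replicate 4 and control fasted replicate 1 together, where the differences in fed larvae were 0.42 for beta to gamma, 4.16 for alpha to gamma and 3.74 for alpha to beta, and in fasted larvae 4.60 for beta to gamma and 1.70 for alpha to gamma. With no pseudocount the alpha to beta difference in fasted larvae was -0.94 (exact permutation p = 0.4). That alternative and the removal of 2 control libraries were chosen after seeing the data. Replicate numbers did not pair the libraries, since the correlation of same-numbered deviations ran from -0.32 to 0.29 and was above 0.1 in 6 of 24 pairs. With a replicate block, 3 genes were called in fed and 3 in fasted larvae, with *Lsp1beta* in fed larvae at adjusted p = 0.0250. Depth limits *Lsp1alpha* and *Lsp1beta* in fasted controls, where the lowest libraries held 11 and 39 reads.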

Other observations

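Fed mutants had the most even *Lsp1* ratios of the 4 groups: the SD of the log2 ratio was 0.05 for beta to gamma and 0.15 for alpha to gamma, against 0.44 and 2.27 in fed controls. In fed controls *Lsp1alpha* followed another order of libraries than beta and gamma only between replicates 1 and 3, where replicate 1 had more *Lsp1alpha* (540 against 312 RPM) and less *Lsp1gamma* (17884 against 19227 RPM). In fed larvae *Lcp2* shared with *Lsp1alpha* its lowest control library, replicate 4, with 10.1 RPM, and its highest, replicate 1, with 23.8 RPM. This was not particular to *Lcp2*, as *ImpE1* (1.53 and 3.35 RPM) and *S-Lap1* (1.64 and 11.7 RPM) had the same lowest and highest library. The cuticle genes *Lcp65Af* and *Lcp65Ag2* ran the other way, with their highest fed control level in replicate 4 (3066 and 694 RPM).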
